A study of Mus musculus with 30 samples.

Results

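The Btg and Tob genes encode a small family of antiproliferative proteins, and 5 of them were followed here across every group of a study of stress signalling in fibroblasts: Btg1, Btg2, Btg3, Tob1 and Tob2. They were picked as a family by gene name, with earlier results of these data known and no threshold on a measured value, and make up 5 of the 21689 named genes on the array and 10 of its 33453 named probes. Btg1 was read by 2 probes, Btg2 by 3, Btg3 by 1, Tob1 by 1 and Tob2 by 3. The cells were embryonic fibroblasts of the mouse (MEFs). Both lines used were immortalised, 1 wild type and 1 lacking the p38α kinase (p38α-/-), which the gene Mapk14 encodes, so genotype and line cannot be told apart. Wild type MEFs received 25 ng/ml anisomycin, an inhibitor of protein synthesis, for 45 min, 100 ng/ml of the cytokine TNFα for 45 min, or 100 mM NaCl for 45 min, 2 h or 8 h. Each of these 5 stresses was also given after SB203580, an inhibitor of p38α and p38β kinase activity, and another wild type group received SB203580 alone. The protocol gives 10 µM SB203580 for 30 min before the stress, while the sample titles give 10 mM and 2 h. The 4 groups of p38α-/- MEFs were without treatment, or had anisomycin for 45 min, TNFα for 45 min or NaCl for 2 h. Each of the 15 groups (11 wild type and 4 p38α-/-) was measured on 2 arrays, from independent experiments. On every array Cy5 marked the cells of the group and Cy3 a pool of RNA from 2 wild type cultures left untreated, without a dye swap, so every value is a log2 ratio of Cy5 to this pool. A bias between the dyes and a difference of the pool from other untreated cells therefore cannot be told apart from a change in a single group. Differences between groups do not hold the pool.

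Proteins of this family bind, through a shared domain at their amino-terminal end, the Cnot7 and Cnot8 deadenylases of the Ccr4-Not complex, which shortens the poly(A) tails of mRNAs. Tob1 and Tob2 also carry motifs that bind the poly(A)-binding protein Pabpc1. Raising their level slows entry into the cell cycle in many cell types. Btg2 is widely known as an immediate early gene and as a target of p53, and Btg1 and Btg2 bind the arginine methyltransferase Prmt1. p38 kinases are activated by inflammatory cytokines, osmotic stress and inhibitors of translation.

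The sequence before the annotated start of 3 members is shown, since Btg2 and Btg1 carried the called differences between arms and Tob1 was above the pool on every array. The sequences were taken from RefSeq on GRCm38.p6, a build used for these sequences only since the array files name none. Promoters were found for 5 of the 5 genes. Each run is the 250 bases before the start, read 5′ to 3′ on the strand of the gene. Capitals mark the motifs searched on both strands. These were the cyclic AMP response element TGACGTCA and the shorter element TGACG (which lies inside the full one on each strand), the AP-1 site TGACTCA, the TATA box TATAAA and the CCAAT box. The CArG box and the κB site were searched by name.
Btg2, chr1:134079156-134079405, minus strand: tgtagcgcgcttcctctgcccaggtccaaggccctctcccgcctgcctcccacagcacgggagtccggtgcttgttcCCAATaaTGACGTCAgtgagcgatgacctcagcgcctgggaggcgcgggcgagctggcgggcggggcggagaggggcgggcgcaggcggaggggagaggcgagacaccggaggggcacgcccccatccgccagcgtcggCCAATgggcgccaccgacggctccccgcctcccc
Btg1, chr10:96616751-96617000, plus strand: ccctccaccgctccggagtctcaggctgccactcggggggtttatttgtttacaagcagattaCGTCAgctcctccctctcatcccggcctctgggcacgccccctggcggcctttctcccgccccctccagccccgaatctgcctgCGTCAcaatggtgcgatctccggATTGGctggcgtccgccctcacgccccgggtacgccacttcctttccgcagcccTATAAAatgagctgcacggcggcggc
Tob1, chr11:94211204-94211453, plus strand: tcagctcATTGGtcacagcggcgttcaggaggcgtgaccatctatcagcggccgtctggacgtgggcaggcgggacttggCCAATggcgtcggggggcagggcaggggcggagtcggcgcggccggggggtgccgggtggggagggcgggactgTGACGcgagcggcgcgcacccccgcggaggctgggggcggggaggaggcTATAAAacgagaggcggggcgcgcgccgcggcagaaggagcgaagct
The full element stood only in Btg2 among the 6 annotated starts of the 5 genes (Btg3 has 2), from 166 to 159 bases before the start, and 1.55% of all 32851 promoters of this length hold it. Btg1 held 2 copies of the shorter element and Tob1 held 1, and 17.8% of promoters hold at least 1. Btg1 and Tob1 each held TATAAA, found in 12.4% of promoters, which none of the other members did. CCAAT was in Btg1, Btg2, Tob1 and both Btg3 starts, and in 33.8% of promoters. A κB site was in 1 Btg3 start and in 7.25% of promoters. No member held the AP-1 site (4.46% of promoters) or the CArG box (1.47%). These are letter matches and were not tested for any bearing on the values.

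The label of the knockout was checked first with Mapk14, read by 1 probe. It was below the pool on 8 of 8 p38α-/- arrays (-2.24 to -0.94) and on 0 of 22 wild type arrays (0.03 to 1.31). All 8 fibroblast markers fixed for the check were well above background on 30 of 30 arrays, but so were all 5 leukocyte markers, both epithelial markers on the array and 2 of 3 endothelial markers, so detection alone did not set the cell type apart. The Cy5 signal of 81.1% to 96.8% of the probes on an array was well above background, and the scanner software marked 6.78% to 44.8% of spots as outliers. The members' probes were well above background in Cy5 on 30 of 30 arrays, except 1 Tob2 probe (A_52_P43100), which was so on 11. None of the members' spots was saturated.

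In the tested gene means marked spots were left out, and this changed which probes of a gene entered the mean from array to array. All 3 Btg2 probes entered on 21 arrays, 2 on 6 and 1 on 3. Btg3 had no value on 8 arrays and Tob1 on 3, so that Btg3 was tested in 7 groups and Tob1 in 13. Values are therefore given below also for 1 probe per gene, the best-covered one, with every spot kept, so that each array reads the same probe. These single-probe values were added after the data had been seen. A difference was called where its adjusted p was under 0.05 in limma, and differences are on the log2 scale.

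Btg2 had the highest ratio of the family and rose with anisomycin and with TNFα, in wild type MEFs, after SB203580 and in p38α-/- MEFs, but not with NaCl. Its best-covered probe (A_52_P31543), marked on 0 of 30 arrays, read 5.38 and 5.26 with anisomycin in wild type MEFs. The same probe read 2.74 and 2.71 with anisomycin after SB203580 and 2.81 and 3.18 with anisomycin in p38α-/- MEFs. Both wild type arrays therefore lay above all 4 arrays of the other arms. With TNFα it read 2.86 and 3.35 in wild type MEFs, 2.39 and 2.60 after SB203580, and 2.15 and 3.04 in p38α-/- MEFs, where the wild type and p38α-/- arrays overlapped. The mean with anisomycin was 5.32 ± 0.09 (SD, n = 2), a 39.9-fold ratio to the pool, against 3.10 ± 0.35 (SD, n = 2) with TNFα. In order of these means anisomycin in wild type MEFs came first, and neither array of it overlapped with the next group, TNFα in wild type MEFs.

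**Figure D1:**
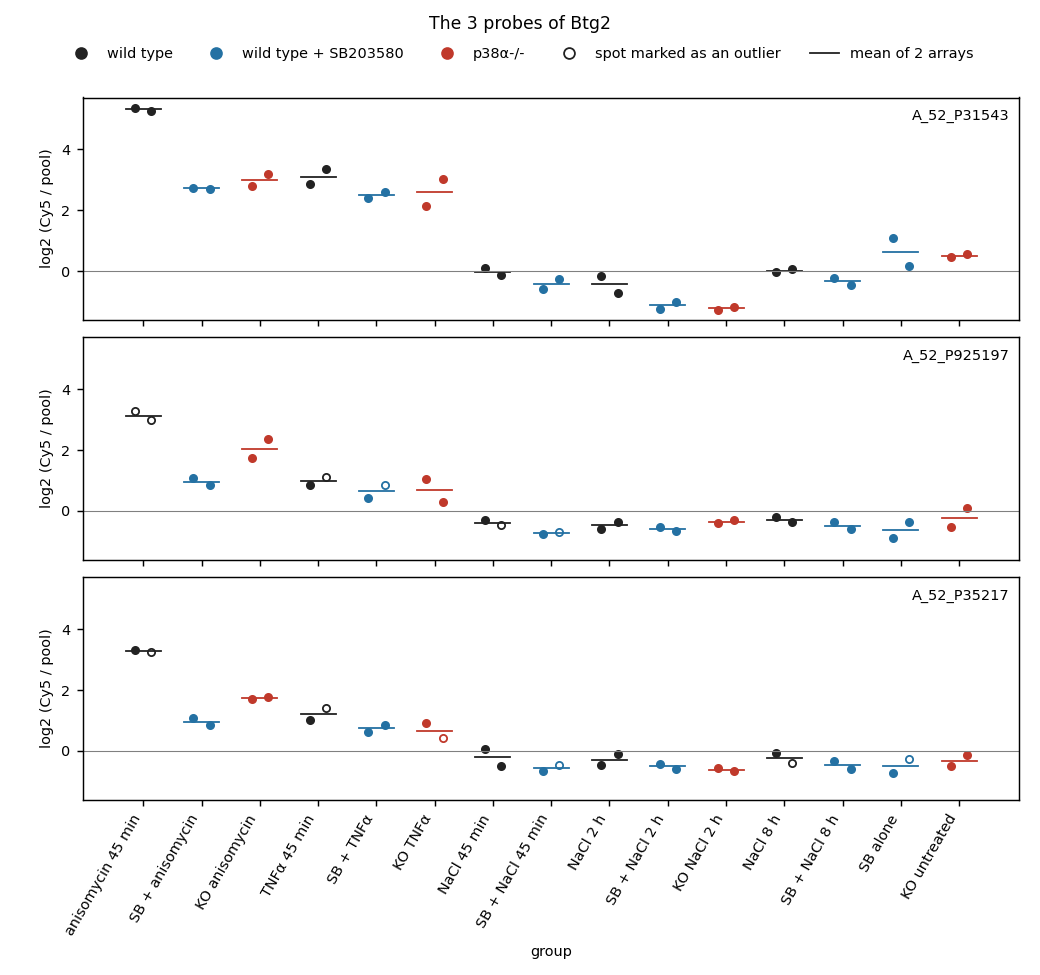
The log2 ratio to the pool of the 3 Btg2 probes on each array (vertical axis) for the 15 groups (horizontal axis), with wild type, SB203580 and p38α-/- groups in black, blue and red, open points for spots marked as outliers and bars at the mean of 2 arrays. All 3 probes were highest with anisomycin in wild type MEFs, and A_52_P31543 read higher than the other 2 probes wherever Btg2 rose.

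The other Btg2 probes gave the same order of the 3 arms with anisomycin, at lower ratios. With anisomycin in wild type MEFs A_52_P925197 read 3.28 and 2.99 and A_52_P35217 read 3.33 and 3.27, and 3 of these 4 spots were marked as outliers. After SB203580 they read between 0.84 and 1.08, and in p38α-/- MEFs between 1.70 and 2.36. The gene mean with marked spots left out was 4.80 ± 0.64 (SD, n = 2) with anisomycin in wild type MEFs, since array 1 held 2 probes and array 2 held A_52_P31543 alone. With TNFα it was 2.47 ± 1.25 (SD, n = 2), from 3 probes on array 1 and A_52_P31543 alone on array 2. The mean of the 3 probes on array 1 was 1.58, where A_52_P31543 alone read 2.86, so the size of the TNFα ratio depended on the probe. Both were called above the pool by limma (adjusted p = 4.0e-09 and 1.9e-05), as were anisomycin and TNFα after SB203580 (1.55 and 1.44, adjusted p = 0.00156 and 0.00343) and in p38α-/- MEFs (2.26 and 1.52, adjusted p = 3.4e-05 and 0.00179). The share of all genes called higher than the pool was 5.72% with anisomycin and 5.25% with TNFα in wild type MEFs, 5.33% and 5.61% after SB203580, and 6.4% and 3.44% in p38α-/- MEFs. Without array 1 or without array 2 the means after SB203580 (1.47 to 1.63 with anisomycin and 1.15 to 1.74 with TNFα) and, without array 2, of TNFα in p38α-/- MEFs (1.37) were no longer called (adjusted p from 0.0505 to 0.144).

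Btg2 was lower with anisomycin after SB203580 and in p38α-/- MEFs than with anisomycin alone in wild type MEFs. The gene means differed by 3.26 between wild type MEFs and wild type MEFs after SB203580 (SE 0.38, adjusted p = 0.00114), and by 2.54 between wild type and p38α-/- MEFs (SE 0.38, adjusted p = 0.00184). On A_52_P31543 alone the differences were 2.59 (SE 0.28, adjusted p = 0.000183) and 2.32 (SE 0.28, adjusted p = 0.000139). On 1 probe per gene 0.0461% of all genes were called higher in the first of these comparisons and 0.835% in the second. On A_52_P35217 and A_52_P925197 with all spots kept they were 2.33 and 2.18 for SB203580 and 1.56 and 1.08 for p38α-/-, so the size of the second depended on the probe. All 4 were called (adjusted p from 8.1e-05 to 0.0411). Both gene-mean differences were larger than on any 1 of the 3 probes. The wild type gene mean held A_52_P31543 alone on array 2, while those of the other arms also held the lower-reading probes. The gene-mean differences therefore do not compare the same probes, and the single-probe values do. Btg2 was 1 of 3 genes called higher with anisomycin alone than after SB203580, which is 0.0204% of genes tested, and none was called lower. The other 2, named after their values were seen, were Spry4, an inhibitor of receptor tyrosine kinase signalling, at 2.36 (SE 0.34, adjusted p = 0.00875) and Zcchc3 at 0.93 (SE 0.12, adjusted p = 0.00424). Between wild type and p38α-/- MEFs with anisomycin 0.756% of genes were called higher in the wild type and 0.517% lower. By the scan times in the file headers the wild type array 2 and the p38α-/- array 1 were scanned in the same batch, and between them A_52_P31543 differed by 2.44. The differences between the arms held without any 1 of their arrays (2.81 to 3.71 for SB203580 and 2.09 to 2.99 for p38α-/-). With only the 22 wild type arrays in the fit, the difference of 3.26 for SB203580 was still called (adjusted p = 0.0230). With only the arrays of the groups compared, that of 2.54 for p38α-/- was not (adjusted p = 0.437). These 2 fits hold unlike numbers of arrays, and the SB203580 difference was not fitted on its own groups alone.

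What remained of the Btg2 response inside each arm was also tested. In p38α-/- MEFs anisomycin raised Btg2 over untreated p38α-/- MEFs by 2.27 (adjusted p = 0.0216), where 0.0786% of genes were called higher. This call was lost without any 1 of the 4 arrays (2.09 to 2.45, adjusted p from 0.0585 to 0.256). After SB203580 the gain over SB203580 alone was 1.68 (adjusted p = 0.339), and with TNFα it was 1.58 after SB203580 and 1.53 in p38α-/- MEFs (adjusted p = 0.249 and 0.464). On A_52_P31543 all 4 gains were called, at 2.09 and 2.48 with anisomycin and 1.87 and 2.09 with TNFα (adjusted p from 0.000228 to 0.00345), where the share of all genes called higher was 0.0415%, 0.0738%, 0.134% and 0.12% in the same order. For TNFα 0% of genes were called in either direction against SB203580, and 0.358% higher and 0.0561% lower against p38α-/- MEFs. The Btg2 difference between wild type MEFs and the arms was 1.03 (SE 0.38) for SB203580 and 0.94 (SE 0.38) for p38α-/-, with adjusted p = 1 and 0.51. On A_52_P31543 it was 0.61 and 0.51 (SE 0.28 each, adjusted p = 1 and 0.643). The wild type gene mean with TNFα held A_52_P31543 alone on array 2, so the gene-mean differences do not compare the same probes. In wild type MEFs anisomycin gave 2.34 more than TNFα (SE 0.38, adjusted p = 0.00572, with 0.113% of genes called higher), and 2.21 more on A_52_P31543 (adjusted p = 0.000268, with 0.111%). Over NaCl at 45 min it gave 4.99 and TNFα 2.65 (adjusted p = 1.2e-06 and 0.00196, with 0.265% and 0.194% of genes called higher). The difference of 2.34 from TNFα was lost without array 1 of TNFα (1.46, adjusted p = 0.0967) and without array 2 of anisomycin (1.89, adjusted p = 0.126).

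With NaCl Btg2 was near or below the pool. A_52_P31543 read 0.09 and -0.14 at 45 min, -0.16 and -0.72 at 2 h and -0.04 and 0.08 at 8 h in wild type MEFs. At 2 h it read -1.23 and -1.01 after SB203580 and -1.27 and -1.19 in p38α-/- MEFs. All 3 probes were below the pool on each of the 6 arrays at 2 h, the other 2 between -0.67 and -0.12. The share of all genes called lower than the pool there was 7.69% after SB203580 and 8.91% in p38α-/- MEFs, and 15.3% and 13.6% with marked spots kept. The gene means of -0.74 after SB203580 and -0.73 in p38α-/- MEFs were not called (adjusted p = 0.0630 and 0.0658), but were with a block for the paired replicates (adjusted p = 0.0363 and 0.0391). They were called as well with marked spots kept (adjusted p = 0.000217 and 0.000179), which moved neither mean. With these spots kept Btg2 was also called below the pool with NaCl at 2 h in wild type MEFs (-0.40, adjusted p = 0.0177) and after SB203580 at 45 min (-0.57, adjusted p = 0.00107) and 8 h (-0.43, adjusted p = 0.00866), where 12.5%, 21.6% and 17.2% of all genes were called lower. At 2 h the wild type mean lay 0.34 above that after SB203580 and 0.33 above that of p38α-/- MEFs (SE 0.38 each), and neither difference was called (adjusted p = 1 and 0.789). On A_52_P31543 these were 0.68 and 0.79 (SE 0.28 each), also not called (adjusted p = 1 and 0.198). Set against the unstressed group of the same arm, A_52_P31543 fell by 1.75 after SB203580 and by 1.74 in p38α-/- MEFs (adjusted p = 0.00102 and 0.00265, with 2.18% and 0.599% of genes called lower), while the other 2 probes differed by -0.30 to 0.02 and were not called. The probes disagreed in the unstressed groups themselves: with SB203580 alone A_52_P31543 read 1.07 and 0.18, whereas the other 2 probes read between -0.88 and -0.26.

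**Figure D2:**
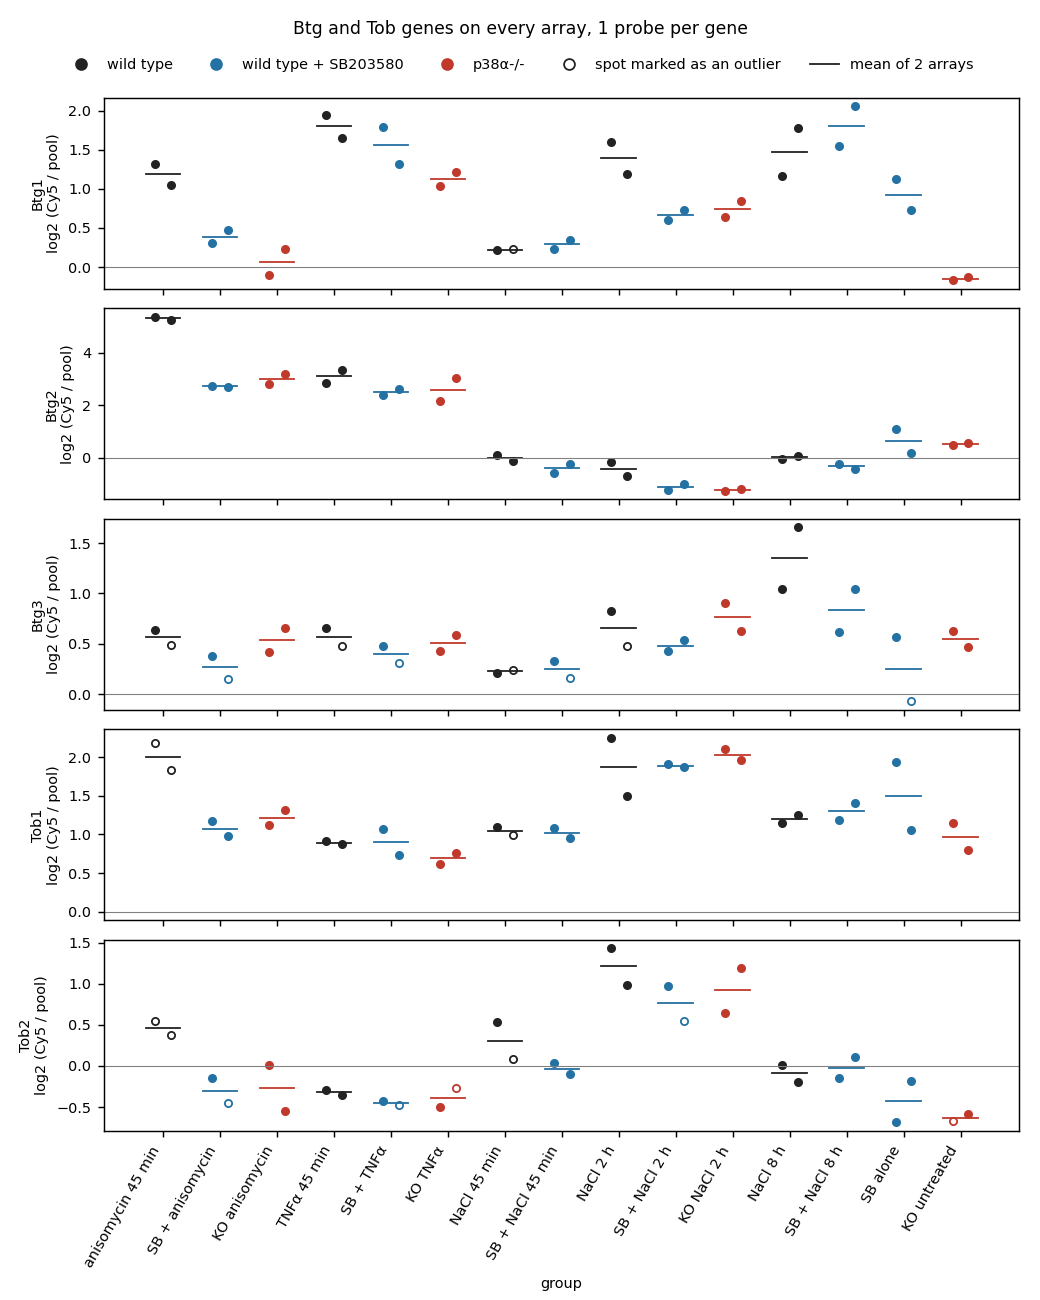
The log2 ratio to the pool of 1 probe per gene on each array (vertical axes, a scale for each gene) in the 15 groups (horizontal axis), coloured by arm, with open points for marked spots and bars at the mean of 2 arrays. Btg2 stood highest with anisomycin, Btg1 with TNFα and with NaCl at 8 h after SB203580, Btg3 with NaCl at 8 h, Tob1 with anisomycin and NaCl at 2 h, and Tob2 with NaCl at 2 h.

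Btg1, the closest relative of Btg2, was above the pool with all 3 kinds of stress in wild type MEFs, by less than Btg2 was with anisomycin, and also with SB203580 alone. Its best-covered probe (A_51_P288193) read 1.32 and 1.05 with anisomycin, 1.94 and 1.65 with TNFα, and 0.22 and 0.23 with NaCl at 45 min. It read 1.60 and 1.19 with NaCl at 2 h and 1.17 and 1.77 at 8 h. SB203580 alone gave 1.12 and 0.73, and untreated p38α-/- MEFs gave -0.17 and -0.13. Of 14 groups tested the gene mean was called above the pool in 7: anisomycin 1.19, TNFα 1.80, NaCl at 2 h 1.08, NaCl at 8 h 1.32, SB203580 0.85, SB203580 with TNFα 0.98 and SB203580 with NaCl at 8 h 1.64 (adjusted p from 3.0e-05 to 0.00680). The share of all genes called higher was 4.69%, 5.24% and 11% with NaCl at 45 min, 2 h and 8 h in wild type MEFs, 8.79%, 9.39% and 10.5% at these times after SB203580, and 14.7% with SB203580 alone. In p38α-/- MEFs it was 8.02% without treatment and 9.06% with NaCl. The share called lower was 6.28%, 5.72%, 5.19%, 4.69% and 11.2% with anisomycin, TNFα and the 3 NaCl times in wild type MEFs, and 6.33%, 3.91%, 7.97%, 7.69% and 10.7% for the same stresses after SB203580. It was 11.8% with SB203580 alone, and 6.96%, 5.99%, 4.18% and 8.91% in p38α-/- MEFs without treatment and with anisomycin, TNFα and NaCl. For TNFα and NaCl at 8 h in wild type MEFs and NaCl at 8 h after SB203580 the call held without either array, with the means from 1.65 to 1.94, from 0.87 to 1.77 and from 1.21 to 2.06. It was lost for anisomycin without array 1 (1.05, adjusted p = 0.0981), for NaCl at 2 h without array 1 (0.74, adjusted p = 0.252), for SB203580 without array 1 (0.73, adjusted p = 0.201) and for SB203580 with TNFα without either array (0.82 to 1.15).

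Btg1 was lower with anisomycin in p38α-/- MEFs than in wild type MEFs. There A_51_P288193 read -0.10 and 0.23, below both wild type arrays, and after SB203580 it read 0.31 and 0.47, also below both. The gene means of wild type and p38α-/- MEFs differed by 1.32 (SE 0.29, adjusted p = 0.0285), and on this probe by 1.12 (SE 0.22, adjusted p = 0.0120). The second Btg1 probe (A_52_P436258) was marked on both wild type arrays with anisomycin and gave 1.00 with all spots kept (SE 0.30, adjusted p = 0.127). The call on the gene mean was lost without any 1 of the 4 arrays (1.16 to 1.47, adjusted p from 0.0800 to 0.275) and with only the arrays of the groups compared in the fit (adjusted p = 0.437), and the arrays of the same scan batch differed by 1.15. For SB203580 the difference was 1.05 (SE 0.29, adjusted p = 0.93), and 0.80 on the single probe (SE 0.22, adjusted p = 1.00). With TNFα the gene means differed by 1.17 from p38α-/- MEFs (SE 0.29, adjusted p = 0.111), but the wild type mean held A_51_P288193 alone, and on that probe the difference was 0.67 (SE 0.22, adjusted p = 0.309). With NaCl 0% of genes were called in either direction against SB203580 at 45 min and 2 h, 0.113% higher and 0.0928% lower at 8 h, and 0.436% higher and 0.261% lower against p38α-/- MEFs at 2 h. At 2 h the Btg1 differences were 0.64 for SB203580 and 0.61 for p38α-/- (SE 0.29 each, adjusted p = 1 and 0.427), and after 8 h the difference was -0.32 for SB203580 (SE 0.29, adjusted p = 1). On A_51_P288193 TNFα raised Btg1 in p38α-/- MEFs over untreated p38α-/- MEFs by 1.28 (SE 0.22, adjusted p = 0.0166), from -0.15 to 1.13, while on the gene mean the gain was 0.76 (adjusted p = 1). Over SB203580 alone TNFα gave 0.13 on the gene mean and 0.63 on the probe (adjusted p = 1 and 0.923), and anisomycin gave -0.72 and -0.54 (adjusted p = 0.827 and 0.723). NaCl gave -0.63 and -0.64 at 45 min and -0.42 and -0.26 at 2 h, which were not called. At 8 h it gave 0.78 on the gene mean (adjusted p = 0.114) and 0.87 on the probe (adjusted p = 0.0156, with 2.87% of genes called higher). In p38α-/- MEFs anisomycin gave 0.00 and 0.21 and NaCl 0.60 and 0.89 over no treatment, also not called.

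**Figure D3:**
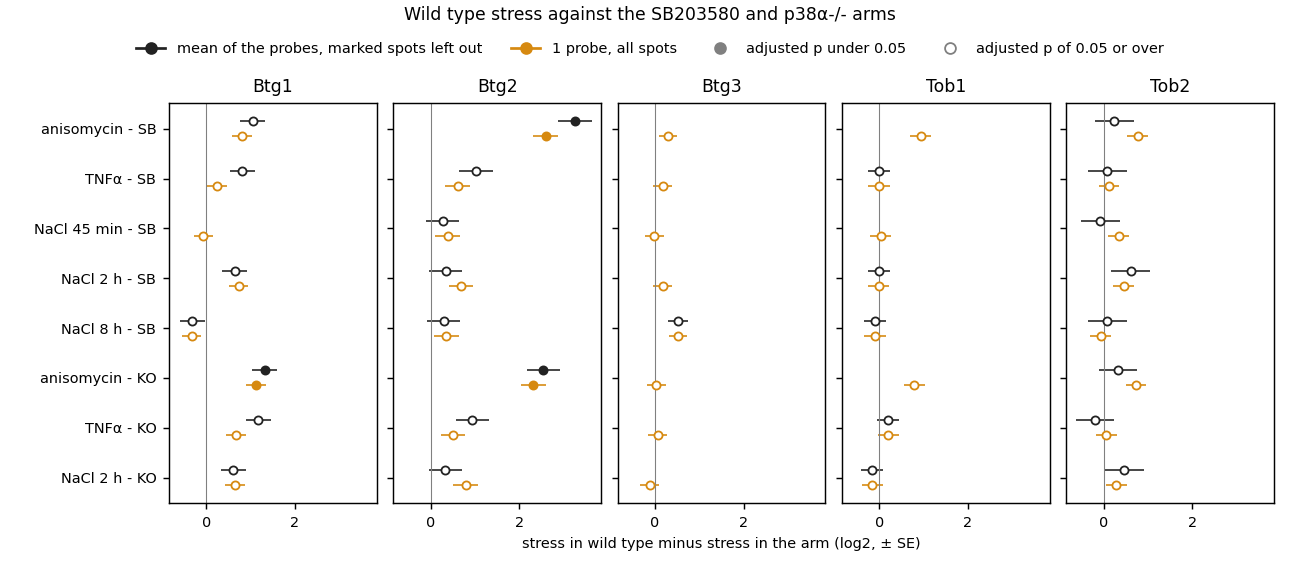
The difference of the log2 ratio between a stress in wild type MEFs and the same stress after SB203580 or in p38α-/- MEFs (horizontal axis, ± SE of the limma fit) for 8 comparisons (vertical axis) and the 5 genes, with filled points where the adjusted p was under 0.05. Filled points appear for Btg2 with anisomycin in both arms and for Btg1 with anisomycin against p38α-/-, on the gene means (black) and on 1 probe (orange).

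With anisomycin all 5 members were higher in wild type MEFs than after SB203580 on 1 probe per gene, without overlap of the arrays. The share of all genes with this order was 8.33%, and 13.8% had the opposite order. Against p38α-/- MEFs 4 of 5 members lay higher without overlap, all but Btg3, where the share of all genes was 15.5%. For Tob1 and Tob2 both wild type spots, and for Btg3 1 of them, were marked as outliers. After SB203580 at least 1 spot each of Btg3 and Tob2 was marked as well, so these orders rest partly on marked spots. With TNFα 3 of 5 members lay above SB203580 (8.29% of all genes) and 2 of 5 above p38α-/- MEFs (17.8%), and with NaCl at 2 h 3 of 5 (12.8%) and 2 of 5 (17.7%). With NaCl at 45 min 2 of 5 lay above SB203580 (11.4%) and 1 below (17.2%), and at 8 h 2 of 5 above (15.6%). The opposite order was found for 0 of 5 members in the other comparisons, and for 26% of all genes with anisomycin against p38α-/-, 18.8% and 23.7% with TNFα, 14.7% and 24% with NaCl at 2 h and 11.9% at 8 h. Of the differences in this order only those of Btg2 and Btg1 named above passed the test over all genes.

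Tob1 was above the pool on 30 of 30 arrays, from 0.62 to 2.25 with a median of 1.15, and 3.79% of all genes were above it on every array on their best-covered probe. Its single probe read 1.94 and 1.06 with SB203580 alone and 1.15 and 0.79 in untreated p38α-/- MEFs, so the ratio stood above 0 also without stress. It was called above the pool in 13 of 13 groups tested, at 0.69 to 2.03. Of these calls 7 held without either array and 6 did not, those of TNFα alone (0.88 to 0.91), TNFα after SB203580 (0.73 to 1.07) and in p38α-/- MEFs (0.62 to 0.77), without array 1 those of anisomycin after SB203580 (0.98) and untreated p38α-/- MEFs (0.79), and without array 2 that of NaCl at 45 min after SB203580 (1.08). With NaCl at 2 h it read 2.25 and 1.50 in wild type MEFs, 1.91 and 1.88 after SB203580, and 2.10 and 1.96 in p38α-/- MEFs. These 3 groups overlapped, and their means differed by -0.02 for SB203580 and -0.16 for p38α-/- (SE 0.25 each, adjusted p = 1 and 0.859). In p38α-/- MEFs, where the pool cancels, NaCl gave 1.06 more than no treatment, which was not called (SE 0.25, adjusted p = 0.0505) but was with all spots kept (adjusted p = 0.0349, with 0.705% of genes called higher) and with the replicate block (adjusted p = 0.0219). In the SB203580 arm NaCl at 2 h gave 0.39 more than SB203580 alone (SE 0.25, adjusted p = 0.487), and the other 4 stresses gave -0.60 to -0.20 (adjusted p from 0.742 to 1). Anisomycin gave 2.19 and 1.83 in wild type MEFs, on marked spots, against 1.17 and 0.98 after SB203580 and 1.12 and 1.32 in p38α-/- MEFs. With these spots kept the differences were 0.93 and 0.79 (SE 0.24 each, adjusted p = 0.736 and 0.129), and the arrays of the same scan batch differed by 0.71. With NaCl at 8 h Tob1 was at 1.15 and 1.25, and with TNFα at 0.91 and 0.88.

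Tob2, the relative of Tob1, stood above the pool mainly with NaCl at 2 h. Its best-covered probe (A_52_P301103) then read 1.43 and 0.99 in wild type MEFs, 0.97 and 0.55 after SB203580 and 0.64 and 1.20 in p38α-/- MEFs. The second probe (A_52_P70854) read 0.83 and 0.81, 0.38 and 0.29, and 0.47 and 0.55 in the same groups. The gene mean, which also holds the dim probe, was called in 0 of 15 groups tested by limma, at 0.91 ± 0.35 (SD, n = 2, adjusted p = 0.0694) with NaCl at 2 h in wild type MEFs, 1 of 15 with the replicate block (this group, adjusted p = 0.00950) and 1 of 15 with marked spots kept (adjusted p = 0.0117, with 7.25% of genes called higher). At an unadjusted p under 0.05 it was above the pool in 1 group, the same one. On A_52_P301103 the value was 1.21 ± 0.31 (SD, n = 2, adjusted p = 6.9e-05, with 9.23% of genes called higher), and on A_52_P70854 0.82 (adjusted p = 2.0e-05). Over the 15 groups A_52_P301103 with marked spots kept was called above the pool in 4 and below it in 2. Inside the arms, where the pool cancels, A_52_P301103 rose with NaCl at 2 h by 1.19 after SB203580 and by 1.55 in p38α-/- MEFs (adjusted p = 0.00613 and 0.00184, with 1% and 0.65% of genes called higher), and A_52_P70854 by 0.55 and 0.65 (adjusted p = 0.0360 and 0.0234), all with marked spots kept. On the gene mean these gains were 0.58 and 0.41 (SE 0.44 each) and were not called (adjusted p = 0.572 and 0.841). The gains on A_52_P301103 started below the pool, at -0.43 with SB203580 alone and -0.63 in untreated p38α-/- MEFs. At 8 h A_52_P301103 had come back to 0.02 and -0.19 in wild type MEFs, a difference of -1.30 from 2 h (SE 0.23, adjusted p = 0.00135), where 5.21% of genes were called lower on this measure. On A_52_P70854 the difference was -0.41 (adjusted p = 0.0726), and on the gene mean it was -0.69 (adjusted p = 0.447). With anisomycin Tob2 read 0.55 and 0.38 in wild type MEFs, both on marked spots, and with TNFα -0.29 and -0.35.

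**Figure D4:**
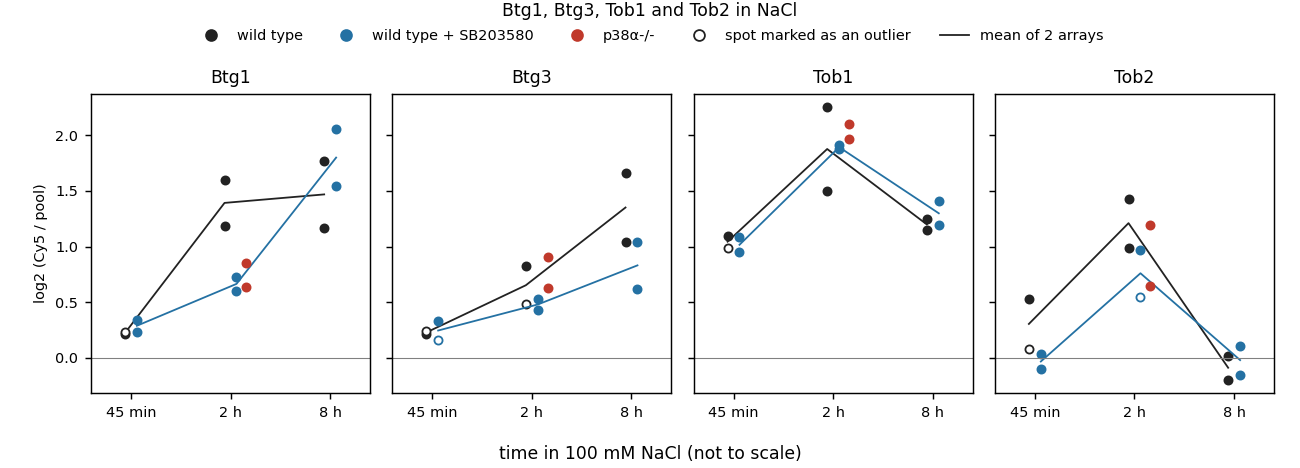
The log2 ratio to the pool on 1 probe per gene (vertical axis) after 45 min, 2 h and 8 h of 100 mM NaCl (horizontal axis, not to scale) for Btg1, Btg3, Tob1 and Tob2, with wild type MEFs in black, SB203580 in blue and p38α-/- MEFs (2 h only) in red, lines through the means and open points for marked spots. Tob1 and Tob2 were highest at 2 h and lower at 8 h, whereas the means of Btg1 and Btg3 were highest at 8 h.

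Btg3, known as a partner of the transcription factor E2f1, was highest after the longest NaCl treatment. Its single probe read from -0.07 to 1.66 over the 30 arrays, 29 of them above the pool. With NaCl at 8 h it read 1.04 and 1.66 in wild type MEFs and 0.62 and 1.04 after SB203580. The mean of 1.35 ± 0.43 (SD, n = 2) in wild type MEFs was called above the pool (adjusted p = 0.000148) and held without either array (1.04 to 1.66). The SB203580 mean of 0.83 was called too (adjusted p = 0.00369) but not without array 2 (0.62, adjusted p = 0.113), and the 2 differed by 0.52 (SE 0.22, adjusted p = 0.902). With all spots kept Btg3 was 0.70 higher at 8 h than at 2 h (SE 0.21, adjusted p = 0.0459, with 3.73% of genes called higher). In p38α-/- MEFs it was called above the pool without treatment (0.55), with anisomycin (0.54) and with NaCl (0.77), at an adjusted p from 0.00704 to 0.0470, and each of these calls was lost without at least 1 of its 2 arrays. With the replicate block NaCl at 2 h after SB203580 (0.48) and TNFα in p38α-/- MEFs (0.51) were called too (adjusted p = 0.0214 and 0.0268, against 0.0571 and 0.0755). Wild type MEFs, not tested in these groups for lack of unmarked spots, read 0.56 with anisomycin and 0.57 with TNFα with all spots kept. They read 0.23 with NaCl at 45 min and 0.65 at 2 h. On these values Btg3 was called above the pool in 10 of 15 groups, so the calls were not particular to p38α-/- MEFs. Inside the p38α-/- arm Btg3 moved by -0.04 to 0.22 with the 3 stresses (adjusted p from 0.716 to 1, all spots kept).

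The 5 members gave 31 calls above the pool and 0 below it in 64 tests of a group mean by limma. Over the 15 groups together 7.56% of the tests of all genes were called above it and 7.17% below it. Of the 31 calls 13 were of Tob1, 7 of Btg1, 6 of Btg2, 5 of Btg3 and 0 of Tob2. The groups share 1 pool and 1 dye order, so the tests of a gene are not independent and the count is not a measure of the family as a whole. With marked spots kept the gene means of the members gave 40 calls above and 5 below in 75 tests, all 5 of them Btg2 with NaCl, beside 8.21% and 16% of the tests of all genes. With the replicate block 2 were below, again Btg2. At an unadjusted p under 0.05 2 were below it, Btg2 with NaCl at 2 h after SB203580 and in p38α-/- MEFs. Of the 31 calls 14 held without either array of their group. With a 2.5-fold mean and no test, 13 values were above the pool. The gain over the pool in wild type MEFs was also set against the gain inside the other arm, where 0.347% of genes were called higher with anisomycin, 0.277% with TNFα and 1.03% with NaCl at 2 h for SB203580, and 0.122% with anisomycin for p38α-/-. In these the pool stands on 1 side only, and 7 of 28 tests of members were called.

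Genes that these proteins work with were read beside the share of all genes called in each group, and in some groups the calls were near that share. Of 17 subunits and cofactors of deadenylation fixed as a list, 14 were on the array by name. In each group 0 to 2 were called above the pool and 1 to 4 below it, of 7 to 13 tested, and their median ratio lay between -0.22 and -0.03. Over the groups 3.44% to 14.7% of all genes were called above the pool and 3.91% to 11.8% below it. With TNFα after SB203580 the list gave 0 above and 1 below of 13 tested, beside 5.61% and 3.91% of all genes. SB203580 alone gave 1 above and 2 below of 10 tested, beside 14.7% and 11.8%. With anisomycin in wild type MEFs Cnot6l and Pabpc1 were higher (0.46 and 0.89) and Cnot10, Cnot3 and Parn lower (-0.45, -0.38 and -0.31), 2 and 3 of 11 tested, beside 5.72% and 6.28% of all genes. With NaCl in p38α-/- MEFs 4 of 13 tested were lower (Cnot2, Cnot8, Cnot10 and Usp52, -0.68 to -0.33), beside 8.91% of all genes. Cnot10, a subunit of the complex, was below the pool in all 15 groups and called so in 12, at -0.70 to -0.31. Its mean was -0.34 in untreated p38α-/- MEFs and -0.37 with SB203580 alone, so the ratio stood below 0 also without stress. Usp52, the array's name for the deadenylase gene Pan2, was called lower in 4 of 12 groups (-0.72 to -0.40), Cnot3 in 3 of 14, Parn in 2 of 11, and Cnot1 and Cnot2 in 1 each. Pabpc1 was called higher in 3 of 15 groups (0.66 to 0.89), Cnot6l in 2 of 15 and Cnot4 in 1 of 15. Cnot7, a direct partner of the family, lay between -0.59 and 0.28 on all arrays and was called in 0 comparisons by limma (lowest adjusted p = 0.203 and lowest unadjusted p = 0.0719). Cnot8 was below the pool in 8 of 8 groups tested and called so in 7, at -0.77 to -0.48, with a mean of -0.62 in untreated p38α-/- MEFs. No difference between wild type MEFs and the other arms was called in this list.

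Of 9 partners and targets, 8 were on the array by name, and Prmt1 was not among them. Ccnd1, which encodes cyclin D1 and whose transcription the family is known to repress, was above the pool on every p38α-/- array with a value, at 0.96 to 1.90, called at 1.30 without treatment, 1.25 with anisomycin and 1.46 with NaCl (adjusted p from 0.000249 to 0.00128). In wild type MEFs it was called with NaCl at 8 h only (1.17, adjusted p = 0.000787), and read 0.55 and 0.48 in that stress after SB203580. The direct differences of wild type from p38α-/- MEFs were -0.99 with anisomycin and -1.33 with NaCl at 2 h (SE 0.31 each) and were not called (adjusted p = 0.153 and 0.0563). E2f1 was called lower than the pool in all 4 p38α-/- groups (-0.35 to -0.54) and in wild type MEFs with TNFα (-0.35). Its means in the other 10 wild type groups were -0.33 to 0.15 and were not called, and the wild type and p38α-/- means differed by 0.05 to 0.26 (SE 0.16, adjusted p from 0.547 to 0.973). Rb1, which encodes the retinoblastoma protein, was called higher in 4 of 15 groups (0.25 to 0.38), and fell by 0.45 with NaCl at 8 h after SB203580 against SB203580 alone (adjusted p = 0.0216, with 5.76% of genes called lower). Smad1, a mediator of BMP signals, was called higher in 2 of 15 groups (0.37 and 0.41), and Erbb2, a receptor tyrosine kinase, lower in 1 of 8 (-0.58, NaCl at 8 h in wild type MEFs). Hoxb9, a partner of Btg2 in transcription, was called higher in 3 of 15 groups (0.64 to 0.76), and rose by 1.09 with NaCl in p38α-/- MEFs over no treatment (adjusted p = 0.0199), where 0.572% of genes were called higher.

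For each member the genes most like it in their group means were found, as a description over groups that share the pool. Among 464 or 465 genes with a value on every array and a spread of at least 0.5 (SD over the groups), Btg2 was followed by 3110018C07Rik (Pearson's r = 0.92 over 15 groups), 1700074P13Rik (0.88) and Ier5l (0.88). Tob2 was followed by BC016579 (0.83), the immediate early gene Ier5 (0.82) and the phosphatase gene Dusp4 (0.80) over 15 groups. Btg1 was followed by F2rl1 (0.74), 9430022A14 (0.71) and Spock3 (0.70) over 14 groups. Tob1 had Dlx2 (0.88), Cldn11 (0.87) and C920021L13Rik (0.83) over 13 groups, and Btg3 had Hs3st1 (0.96), Foxf2 (0.93) and Slc1a3 (0.91) over the 7 groups it was measured in. For Btg1 no gene came above 0.74.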

How the data were processed

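RNA of each group (Cy5) was hybridised against the wild type pool (Cy3) on 30 2-colour Agilent 44K mouse arrays, 2 for each of 15 groups, assigned from the sample titles. The authors deposited scanner tables with a log10 ratio and intensities for each spot, background-subtracted and dye-normalised by Agilent Feature Extraction (8.1.1.1 in the file headers, 9.1 in the labels), and a series matrix whose deposited log2 values served as an alternative. Here log10 ratios were converted to log2, control spots and spots marked as outliers were left out, and spots were averaged by probe and probes by gene. Group means were fitted over all 30 arrays with limma 3.58.1 in R 4.3.3 (lmFit and eBayes), and p-values were adjusted by Benjamini-Hochberg over all genes measured on both arrays of each group. Tests against the pool leave out the pool's own spread, and the number of arrays limits precision. The code was tested on simulated data. Members and gene lists were chosen with earlier results of these data known. Named genes were the members, Mapk14, list genes called in a group (with Cnot7, Cnot8, Prmt1 and Ccnd1 in any case) and the 3 genes most correlated with each member; Spry4 and Zcchc3 were named after their values were seen. Replicate numbers were taken as pairing arrays within a genotype: deviations of same-numbered arrays from their group means correlated above 0.1 in 55 of 55 wild type and 6 of 6 p38α-/- pairs, and in 6 of 44 across genotypes. Every wild type array 1 was scanned in batch 1 and every array 2 in batch 2, so there pairing and scan batch cannot be told apart. The p38α-/- arrays were scanned in batches 2, 3 and 4, so differences between genotypes partly hold scan batch. Alternatives were normexp background correction with loess, the series matrix, other probe rules, outlier spots kept, a replicate block, a scan batch term, fewer arrays in the fit, a 2.5-fold rule and leaving out each array. Figures used matplotlib 3.10.9.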

Additional observations from a re-analysis of the deposited data

Results flagged for a closer look

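The gain over the pool in wild type MEFs was compared with the gain over the unstressed group of the other arm, and 7 of these differences of responses were called by limma. The pool stands on the wild type side alone, so a pool or dye offset cannot be told apart from a difference between the arms. For anisomycin against SB203580 they were 3.12 for Btg2 (SE 0.46, adjusted p = 0.00814) and 1.90 for Btg1 (SE 0.35, adjusted p = 0.0254), and for anisomycin against p38α-/- 2.53 for Btg2 (SE 0.46, adjusted p = 0.0266). For TNFα against SB203580 they were 1.67 for Btg1 (adjusted p = 0.0433) and 1.50 for Tob1 (adjusted p = 0.0405). For NaCl at 2 h against SB203580 they were 1.49 for Btg1 (adjusted p = 0.0414) and 1.48 for Tob1 (adjusted p = 0.0248). Of the 7, 0 held without each of their arrays in turn, and 2 were called without array 1 of SB203580 alone or without array 2 of anisomycin after SB203580. Without 1 array of anisomycin or TNFα, alone or after SB203580, or of NaCl at 2 h after SB203580, 2 to 4 were called. Tob1 was above the pool on all 30 arrays, and SB203580 alone read 1.94 and 1.06 for it.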

How the results depend on the processing

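The 45 called values kept their direction under all alternatives run. All 45 also stayed called under normexp, the series matrix, the other probe rules, outlier spots kept and the replicate block. The setting named here as only the arrays of the groups compared held just those groups where a comparison crossed genotypes. Within a genotype, and against the pool, it held all arrays of that genotype (22 wild type or 8 p38α-/-). Under this setting 10 were lost, and with a 2.5-fold rule 19. The 31 calls against the pool became 54 with the series matrix, 50 with the best-covered probe and all spots kept, 52 with a replicate block added, and 13 with the 2.5-fold rule (27 to 34 leaving out 1 array). The 1 call against SB203580 stayed 1 throughout (1 to 1). The 2 calls against p38α-/- became 0 with only the arrays of the groups compared and 1 with the 2.5-fold rule (1 to 3). The 1 call within an arm became 2 with normexp, with spots well above background, with the replicate block and with the scan batch term, 3 with probes of NM accessions, 4 with the 2.5-fold rule, 6 with outlier spots kept, 8 with the series matrix, 10 with the brightest or the best-covered probe, 12 with the latter and all spots kept, 13 with the block added, and 0 with only the arrays of the groups compared (0 to 4, with 0 without any 1 array of untreated or anisomycin-treated p38α-/- MEFs and 4 without either array of TNFα). The 7 differences of responses became 14 with the series matrix, 12 with outlier spots kept, 16 and 17 with the best-covered probe and all spots kept without and with the block, and 3 with only the arrays of the groups compared (2 to 9). The 3 calls between stimuli became 5 with the series matrix and with outlier spots kept, and 7 and 9 with the best-covered probe and all spots kept without and with the block (2 to 4). The cause was not tested. The replicate block ended none of the 45 calls. The best-covered probe settings were chosen after seeing the data. The scan batch term was not run for pool ratios or differences of responses. With 2 arrays a group, no dye swap and 1 line per genotype, a value that missed the threshold does not show that groups were alike.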
